A study of Homo sapiens with 6 samples.

Results

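Transcript levels in METTL16-rescue cells were compared with those in control cells, to describe what still differed after METTL16 was supplied to cells whose own METTL16 gene had been targeted. Genes were included when their mean over the 6 libraries was at least 5, a rule that uses no difference between groups, and 8828 of the 15059 genes in the table met it. The 3 genes just under this limit had means of 4.9966 to 4.9996, and the 3 just above it had means of 5.0003 to 5.0018. The cells were NOMO-1, a human acute myeloid leukaemia line of monocytic character that carries an MLL gene fusion. In all 3 groups an overexpression vector came first and viral delivery of a guide RNA second, and puromycin (2 µg/ml) was then kept on the cells over 1 to 2 weeks to select those infected. Control cells (sgNS+EV, 2 libraries) carried a guide used as the control for guides and an empty vector. Rescue cells (sgMETTL16+OE-METTL16, 2 libraries) overexpressed METTL16 from a vector before the guide against METTL16 was introduced. Knockout cells (sgMETTL16+EV, 2 libraries) carried the empty vector with that guide and serve here as a reference point. The rescue cells were therefore a parallel population rather than knockout cells followed in time. No source used here says whether the libraries of a group came from separate cultures, so each p-value measures only the spread between these libraries, which may be technical.

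METTL16 is an RNA methyltransferase that places N6-methyladenosine on the U6 small nuclear RNA, a core part of the spliceosome, and on hairpins in the messenger RNA of MAT2A. MAT2A makes S-adenosylmethionine, the methyl donor of nearly all methylation reactions in the cell, and METTL16 binding to its transcript is known to adjust how efficiently that transcript is spliced. Cells of the monocyte and granulocyte lineages fill granules with proteases, ribonucleases and other antimicrobial proteins as they mature, and leukaemic cells of these lineages are blocked part of the way along that course.

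Values are abundances per gene from the RSEM program, corrected for transcript length, and are called the signal here because no header says whether they are TPM or FPKM. The signal summed over all genes ran from 619472 to 681928 in the control and rescue libraries. Across genes, which are not independent replicates, Pearson's r between the libraries of a group was 0.9965 in control and 0.9961 in rescue on the log2 scale. Control replicate 2 stood apart, with the included genes at a median deviation of -0.0992 log2 units from their mean over the libraries, whereas the other 5 libraries had medians from 0.00572 to 0.0391. Its low values enter every difference below, and they lie beside a median difference of 0.0637 over all included genes. That median was 0.13 without control replicate 1 and 0.0018 without control replicate 2. The myeloid origin of the line was checked with a list of 12 myeloid identity markers, of which 11 were in the table. CD33 had a signal of 30.0 to 33.8 in the control and rescue libraries, and the transcription factor gene SPI1 (PU.1) one of 35.4 to 43.6. In the same libraries CSF1R stayed at or below 1.08, TYROBP had 0.895 to 2.27 and ITGAM 4.79 to 5.65. MPO had no entry in the table used here, and the other markers of the list had at least 23.8. Markers of other cell types were low or without an entry. The summed level of the epithelial and embryonic kidney list was 3.05 and 3.38 in control and 3.2 and 3.51 in rescue, and the erythroid and megakaryocytic list summed to 5.71 and 4.64 in control and 4.84 and 4.75 in rescue. Among 15 lymphoid markers 7 had values, with a sum of 137 and 120 in control against 134 and 133 in rescue, nearly all of it from the granule protein gene NKG7.

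Few genes separated rescue from control. In a limma fit with all 6 libraries on log2(signal + 1), 26 of the 8828 included genes were higher in rescue and 3 were lower at a Benjamini-Hochberg adjusted p under 0.05, two-sided and adjusted over all 12734 genes tested. Of all genes tested, 0.228% were called higher and 0.0550% lower, which makes 0.283% in either direction, so the share among the included genes (0.329%) was near that of the table. At an unadjusted p under 0.05 there were 1136 of the 8828 included genes. The share of all genes tested was not counted at that limit, so this number is no result about the included genes. By the same test, 1708 of the included genes were higher and 1422 lower in rescue than in knockout, where 15.6% and 15.9% of all genes tested were called. Knockout against control gave 2410 higher and 1435 lower, beside 26.2% and 13.5% of all genes tested (39.7% in either direction, and 31.4% for rescue against knockout). These comparisons share libraries and are set side by side only. The median absolute difference over the included genes was 0.0735 log2 units between rescue and control, 0.154 between rescue and knockout, and 0.179 between knockout and control.

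The residual differences were small for messenger RNAs. Of 8197 protein-coding genes included, 18 were called, all of them higher in rescue, and 95% of their absolute differences were at most 0.205. Of these genes 8127 (99.1%) had a 95% confidence interval, from the same fit, that lay within 0.5 log2 units of no difference. This corresponds to 1.41-fold in either direction for signal + 1, and to more than that for the signal itself where it is low. A single protein-coding gene, S100A8, differed by 1 log2 unit or more. The 197 small RNAs included (small nucleolar, Cajal body and microRNA genes) gave 7 called higher and 3 lower, and 71 of them (36.0%) had an interval within those bounds. Their replicates also differed more, by a median of 0.304 log2 units against 0.071 for protein-coding genes. The last called gene, named here after its values were known, was RPL23AP64, a processed pseudogene of the ribosomal protein gene RPL23A, at 5.2 and 4.65 in control and 7.23 and 7.18 in rescue (log2 0.47, adjusted p = 0.0457 by limma), and reads from the parent gene could be assigned to it.

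**Figure D1:**
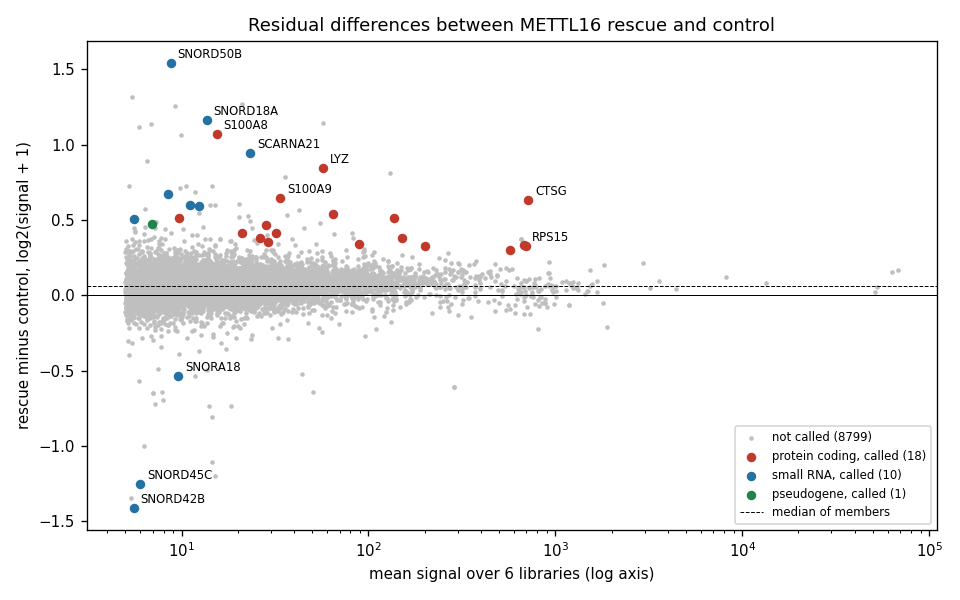
Each point is a gene with a mean signal of at least 5, with the mean over 6 libraries on a log axis and the difference of rescue minus control on the log2(signal + 1) scale. Red points are the 18 called protein-coding genes, blue the 10 called small RNAs and green the pseudogene; the dashed line at 0.0637 is the median of all 8828 genes, and the large differences at low signal are mostly small RNAs.

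The METTL16 gene (chromosome 17, minus strand, GRCh38, 2405562 to 2511891) had a signal of 9.89 and 9.63 in the control libraries and 12.3 and 12.1 in the rescue libraries, against 6.05 and 5.83 in knockout. Both rescue libraries lay above both controls, as for 34.6% of all genes tested, and the rescue mean was 1.25 times the control mean. The difference did not pass the test (log2 0.30, SE 0.082, 95% interval 0.12 to 0.47, adjusted p = 0.175 by limma). Over 16 alternative settings its adjusted p ran from 0.0494 to 0.617, and it passed under 1 of them, the fit restricted to protein-coding genes. No source used here states whether reads from the introduced METTL16 were counted, so this signal need not measure the total METTL16 transcript.

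MAT2A, the messenger RNA target of METTL16, had a signal of 140 and 132 in control and 134 and 138 in rescue, with 77.6 and 78.1 in knockout. The rescue values lay inside the range of the control values, at 0.999 times their mean, and the 95% interval of the log2 difference ran from -0.12 to 0.12 (adjusted p = 0.997 by limma). BCAT1, the cytosolic aminotransferase that starts the breakdown of branched-chain amino acids, had a signal of 22.5 and 21.0 in control and 21.4 and 23.0 in rescue (log2 0.03, 95% interval -0.13 to 0.18, adjusted p = 0.910). BCAT2, its mitochondrial counterpart, had 29.1 and 25.2 in control and 25.6 and 25.2 in rescue (log2 -0.09, 95% interval -0.26 to 0.08, adjusted p = 0.708). The libraries of both groups overlapped for these 3 genes. Their intervals, not adjusted for the number of genes tested, give the range of residual differences compatible with these libraries. For BCAT2, rescue could lie up to 0.26 log2 units below control. They do not give the largest difference that the test could miss.

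The called protein-coding genes were led by proteins of myeloid granules and of inflammatory cells. S100A8, which binds calcium and is abundant in the cytosol of neutrophils, had a signal of 5.21 and 5.36 in control and 11.7 and 12.6 in rescue. Knockout libraries were higher still, at 30.5 and 27.3. The rescue level was 2.3 times that of control (log2 1.07, SE 0.083, adjusted p = 1.57e-05 by limma). S100A9, which pairs with S100A8 to form calprotectin, had 17.6 and 19.9 in control, 27.8 and 31.9 in rescue, and 52.6 and 53.1 in knockout (rescue minus control 0.64, SE 0.078, adjusted p = 0.00118). Neither gene had a rescue library that reached into the range of the controls or of the knockouts.

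LYZ, the gene of lysozyme, which cleaves bacterial cell walls, had a signal of 30.9 and 31.1 in control, 55.0 and 57.8 in rescue, and 81.9 and 87.2 in knockout. Its rescue level was 1.82 times that of control (log2 0.85, SE 0.060, adjusted p = 7.45e-06 by limma), and the 2 control libraries differed by less than 1 unit of signal. CTSG, the serine protease cathepsin G of azurophil granules, was the most abundant protease or ribonuclease gene called. Its signal was 324 and 304 in control and 492 and 482 in rescue, far below the 1363.8 and 1340 of knockout (rescue minus control 0.63, SE 0.052, adjusted p = 2.27e-05). LYZ, CTSG and S100A8 were the only called genes that passed under each alternative setting in which they were tested, which includes leaving out each library in turn and 3 ways of rescaling the libraries.

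The paralogous ribonuclease genes RNASE2 and RNASE3 encode the eosinophil-derived neurotoxin and the eosinophil cationic protein. RNASE3 had a signal of 36.3 and 34.2 in control and 51.4 and 51.6 in rescue, and RNASE2 had 84.2 and 78.9 in control and 114 and 119 in rescue. Both differed by about the same amount, 0.54 for RNASE3 and 0.51 for RNASE2, each with an adjusted p of 0.000697 by limma, and how reads were divided between these similar genes is not known. SLPI, a secreted inhibitor of neutrophil serine proteases, was much lower in level, at 3.41 and 3.16 in control and 4.79 and 5.42 in rescue (log2 0.51, adjusted p = 0.0293). In knockout it stood at 20.5 in both libraries, so that its log2 difference of rescue minus knockout, -1.82, was the lowest among the 18 genes.

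Of the other 11 called protein-coding genes, CALR and RPS15 are described with their lists below. The remaining 9, of which MNDA and S100A4 are in the myeloid maturation list, were looked up after the values were seen, to complete the set. MNDA, a nuclear antigen of myeloid cells, had 20.7 and 19.1 in control and 26.7 and 27.1 in rescue (log2 0.42, adjusted p = 0.0134 by limma). LILRA2, an activating leukocyte receptor, was at 0.38 and CHI3L1, a secreted glycoprotein of macrophages and neutrophils, at 0.32. ATP8B4, a phospholipid-transporting ATPase, differed by 0.47 (adjusted p = 0.00723), with 20.4 and 18.4 in control against 26.7 and 27.7 in rescue. Among proteins of the cell surface, cytoskeleton and matrix, ANXA2 (annexin A2) was at 0.38, SH3BGRL3 at 0.34, S100A4 at 0.30 and MMP2, a gelatin-degrading metalloprotease, at 0.35. UFD1L, which acts in delivering ubiquitinated proteins from the endoplasmic reticulum for degradation, was at 0.41. These 9 genes had adjusted p from 0.00273 for ANXA2 to 0.0479 for LILRA2.

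Over the 18 genes the rescue level was 1.23 to 2.3 times that of control, with a median of 1.35. Their differences between knockout and control ran from 0.21 to 2.33 log2 units and those between rescue and knockout from -1.82 to 0.11. The mean level in rescue lay between those of control and knockout for 17 of the 18. RPS15, a protein of the small ribosomal subunit, was the exception, at 590 and 628 in control, 724 and 689 in knockout, and 766 and 761 in rescue. The 3 differences of a gene are made from the same 6 libraries, and none is independent evidence for another.

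**Figure D2:**
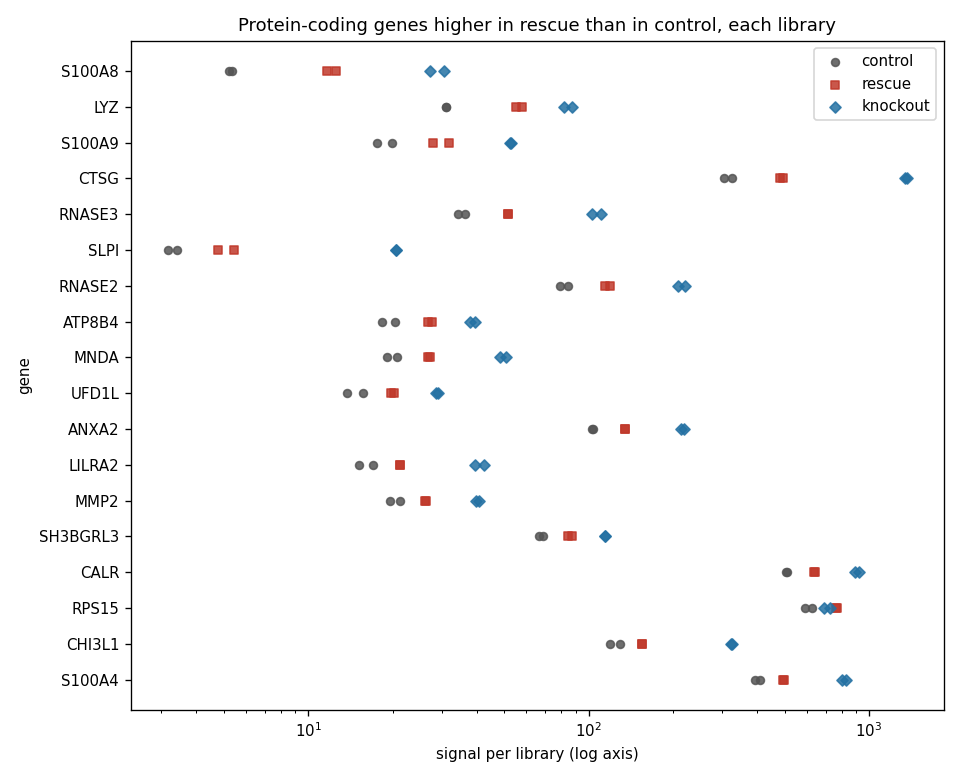
Signal of each library on a log axis for the 18 protein-coding genes called higher in rescue, with 2 libraries each of control (grey circles), rescue (red squares) and knockout (blue diamonds). For each gene both red squares lie to the right of both grey circles; the blue diamonds lie farther right for all but RPS15.

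The list of myeloid maturation and granule proteins held 57 genes, of which 42 were included, and it gave 9 of the 18 called protein-coding genes: S100A8, LYZ, S100A9, CTSG, RNASE3, RNASE2, SLPI, MNDA and S100A4. None was called lower, and 33 did not pass. Of all genes tested, 0.228% were called higher and 0.0550% lower. The list was written with earlier results of these data known, so its calls are no independent support. In knockout against the same control libraries 39 of the 42 were called higher, beside 26.2% of all genes tested. Over the alternatives 3 to 20 of the list were called higher and 0 lower, with 3 called without control replicate 2. The median difference over the 42 genes was 0.19, against 0.0637 over all included genes. Both rescue libraries lay above both control libraries for 34 of the 42 and below them for 0, where 34.6% of all genes tested lay above and 5.33% below. The list's median was 0.12 to 0.15 above that of all included genes when the libraries were rescaled in 3 ways or left out in turn. Its summed signal was 4334.9 and 4044.4 in control, 4839.1 and 4839.2 in rescue, and 7003.7 and 6812.9 in knockout. In these bulk libraries, more cells that express these genes and more of their RNA per cell cannot be told apart.

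Other myeloid identity markers were not called. FCER1G, a signalling chain of Fc receptors, had a signal of 77.8 and 65.7 in control and 88.3 and 88.9 in rescue (log2 0.30, adjusted p = 0.102 by limma). CEBPA, a transcription factor of granulocyte and monocyte development, had 91.2 and 88.0 in control and 103 and 104 in rescue (log2 0.20, adjusted p = 0.176). ANPEP, the surface peptidase CD13, had 26.7 and 24.6 in control and 29.5 and 30.1 in rescue (log2 0.21, adjusted p = 0.232). None of these 3 passed the test. Both rescue libraries lay above both controls for each, where 34.6% of all genes tested did so. Their choice by smallest p makes this likely, so it adds no support. Of the 9 identity markers included, LYZ alone was called, and the median difference was 0.19.

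Promoter sequence was read for the called protein-coding genes to show the DNA beside these values, from RefSeq on GRCh38.p14, and 14 of the 18 had an entry. The 250 bases before the transcription start were searched on both strands for GAGGAA, the core recognised by PU.1, and for TTGCNNAA, a pattern of C/EBP factors. These motifs were chosen with the results known. GAGGAA was found for 6 of the 14 (ATP8B4, CTSG, MNDA, RPS15, S100A8 and S100A9) and for 27.3% of 27305 genes with RefSeq promoters of this length (23.6% of 35116 promoters, since a gene can have several). TTGCNNAA was found for 3 (MNDA, RNASE2 and RNASE3) and for 11% of all such genes (9.05% of promoters), and the patterns share no overlapping match in the sequences shown. A match is a string of letters and not a site shown to be bound. The promoters of 3 granule genes are printed 5′ to 3′ on the strand of the gene, with matches on either strand in capitals: CTSG at chr14:24576251-24576500 (minus strand), S100A9 at chr1:153357604-153357853 (plus strand) and RNASE3 at chr14:20891135-20891384 (plus strand).
CTSG: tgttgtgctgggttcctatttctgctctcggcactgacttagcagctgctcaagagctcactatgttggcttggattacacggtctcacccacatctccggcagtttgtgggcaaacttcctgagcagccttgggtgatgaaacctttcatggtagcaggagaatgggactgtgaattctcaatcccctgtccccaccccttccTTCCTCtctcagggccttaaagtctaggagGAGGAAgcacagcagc
S100A9: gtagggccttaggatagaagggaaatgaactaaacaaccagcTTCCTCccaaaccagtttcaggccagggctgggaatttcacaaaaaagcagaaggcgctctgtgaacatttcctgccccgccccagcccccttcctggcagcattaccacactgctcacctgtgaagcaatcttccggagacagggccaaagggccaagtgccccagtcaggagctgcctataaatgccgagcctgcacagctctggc
RNASE3: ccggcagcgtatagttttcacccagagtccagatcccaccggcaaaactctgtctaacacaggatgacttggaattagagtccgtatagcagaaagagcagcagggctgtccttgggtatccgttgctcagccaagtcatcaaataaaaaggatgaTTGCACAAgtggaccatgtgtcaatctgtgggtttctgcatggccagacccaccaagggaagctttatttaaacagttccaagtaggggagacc

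Chaperones of the endoplasmic reticulum formed the list with the next highest median after the myeloid lists. Of 26 included genes of the unfolded protein response, CALR was called higher and none lower, with a median of 0.14. Of all genes tested, 0.228% were called higher and 0.0550% lower. Both rescue libraries lay above both controls for 18 genes and below them for 1, beside 34.6% and 5.33% of all genes tested. CALR (calreticulin, a calcium-binding chaperone of glycoproteins) had a signal of 509 and 505 in control, 636 and 641 in rescue, and 923 and 889 in knockout (rescue minus control 0.33, SE 0.049, adjusted p = 0.00723 by limma). PDIA3, a disulfide isomerase that works with CALR, had 142 and 137 in control and 165 and 168 in rescue (log2 0.25, adjusted p = 0.0579). CRELD2 had 8.14 and 7.78 in control and 11.3 and 10.3 in rescue (log2 0.40, adjusted p = 0.0579), and HSPA5, the chaperone BiP, had 101 and 97.3 against 117 and 118 (log2 0.24, adjusted p = 0.0814). These 3 genes did not pass, and their libraries did not overlap between the groups. Over the alternatives the list had 0 to 7 called genes. The CALR call was kept in 10 of 16 alternatives.

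Targets of ATF4, the transcription factor of the amino acid response, had the lowest median of the lists. None of its 29 included genes was called. The median difference was -0.04, and both rescue libraries lay below both controls for 13 genes and above them for 4, where 5.33% and 34.6% of all genes tested did so. DDIT4, a stress-induced inhibitor of mTORC1, had a signal of 122 and 116 in control, 100 and 97.2 in rescue, and 70.3 and 65.4 in knockout (rescue minus control -0.27, adjusted p = 0.0805 by limma). XPOT, which exports transfer RNAs from the nucleus, had 94.0 and 88.5 in control and 78.2 and 81.0 in rescue (log2 -0.19, adjusted p = 0.217). SLC7A11, the cystine and glutamate exchanger, had 15.8 and 14.2 in control and 13.1 and 13.2 in rescue (log2 -0.17, adjusted p = 0.449). SLC7A5, a carrier of large neutral amino acids, was the member of smallest p with a higher value in rescue, at 73.8 and 72.7 against 70.1 and 64.5 (log2 0.12, adjusted p = 0.479).

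Replication-dependent histone genes gave a similar picture. Of 55 included, none was called, the median was -0.03, and both rescue libraries lay below both controls for 18 and above them for 4, beside 5.33% and 34.6% of all genes tested. Among these genes HIST1H2BI had the smallest p and was the reverse of the median, with a signal of 61.2 and 58.4 in control and 72.3 and 68.2 in rescue (log2 0.23, adjusted p = 0.151 by limma). HIST1H2AG had 880 and 810 in control and 767 and 780 in rescue (log2 -0.13, adjusted p = 0.401), and HIST1H2BL 743 and 707 against 657 and 680 (log2 -0.12, adjusted p = 0.410). Histone genes are near-identical copies, and reads could be split between them. The medians of the ATF4 and histone lists were both 0.01 without control replicate 1, while they differed from the median of all included genes by -0.12 to -0.08 under each rescaling and each left-out library.

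**Figure D3:**
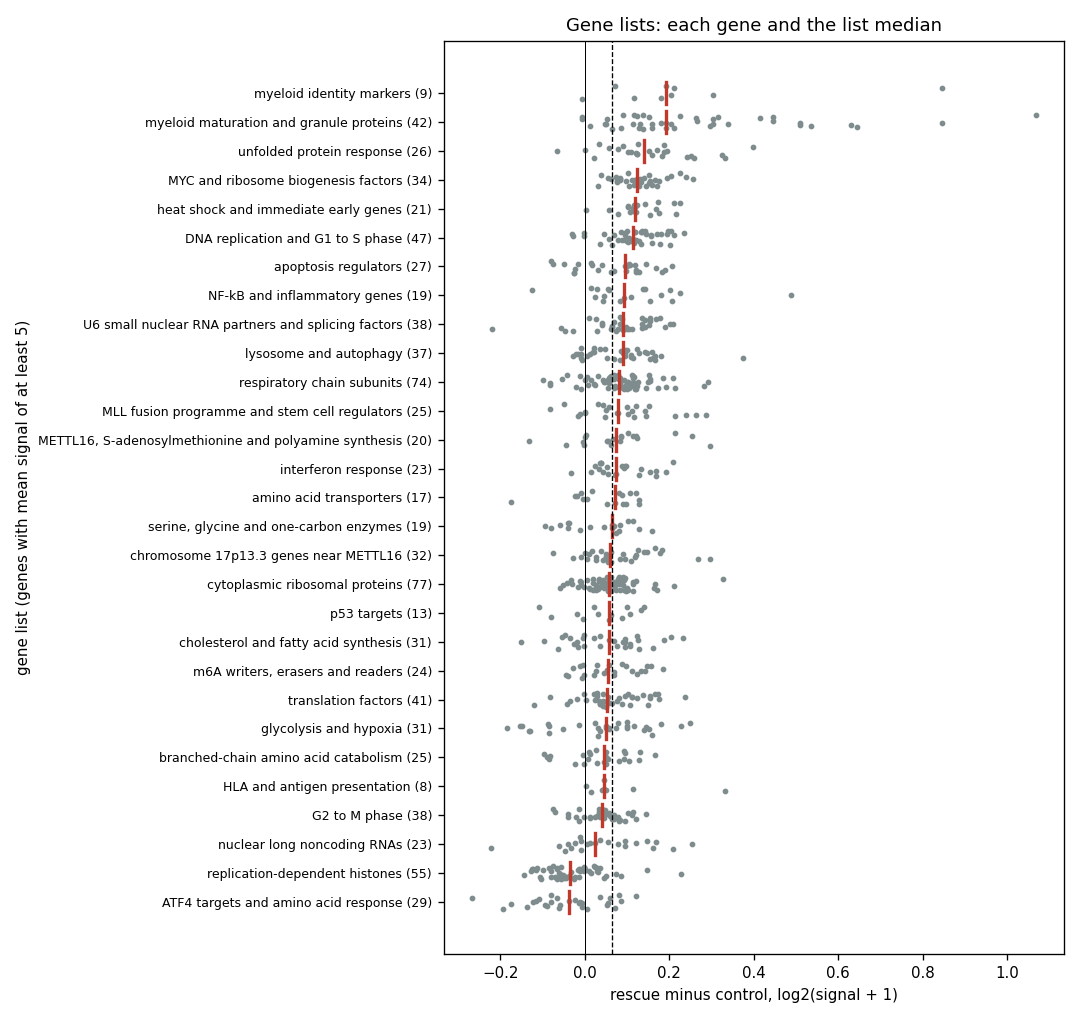
Each point is an included gene of a list, with its difference of rescue minus control on the log2(signal + 1) scale; red bars are list medians, the solid line marks no difference and the dashed line the median of all included genes at 0.0637. The myeloid lists, with medians of 0.19, stand at the top with a tail to 1.07, and the histone and ATF4 lists, at -0.03 and -0.04, at the bottom.

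The MYC and G1 to S lists lay slightly above the median of all included genes, without calls. Of 34 factors of the MYC and ribosome biogenesis list, none was called, and the median was 0.12. All 34 had a difference above 0, but so did 67 of 77 ribosomal protein genes, and the median of all included genes was 0.0637. Both rescue libraries lay above both controls for 26 of the 34 and below them for 0, where 34.6% and 5.33% of all genes tested did so. MYC had a signal of 95.7 and 87.1 in control, 106 and 110 in rescue, and 64.3 and 65.3 in knockout (rescue minus control 0.24, adjusted p = 0.114 by limma). The nucleolar proteins NOP2 and NOP56 were at 0.22 and 0.17, with adjusted p of 0.177 and 0.243. Genes of DNA replication and the G1 to S transition had a median of 0.12 over 47 included, with none called. Both rescue libraries lay above both controls for 37 of them and below for 0, beside 34.6% and 5.33% of all genes tested. RRM2, the regulated subunit of ribonucleotide reductase, had 135 and 126 in control against 147 and 151 in rescue (log2 0.19, adjusted p = 0.177), and PCNA, the replication clamp, 218 and 202 against 235 and 241 (log2 0.18, adjusted p = 0.221). Genes of the G2 to M transition had a median of 0.04 over 38 included, below that of all included genes. Relative to the median of all genes under each rescaling and left-out library, the MYC list stood 0.04 to 0.09 higher and the G1 to S list 0.04 to 0.06 higher.

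Ribosomal protein genes gave 1 call in 77 included, beside 0.283% of all genes tested, with a median of 0.06. RPS15 differed by 0.33 (SE 0.053, adjusted p = 0.0141 by limma), and FAU, which encodes another protein of the small subunit, had 253 and 251 in control and 288 and 296 in rescue (log2 0.21, adjusted p = 0.135). RPL41 had 1398 and 1504.4 in control and 1622.9 and 1635.6 in rescue (log2 0.17, adjusted p = 0.250). Ribosomal protein genes have many processed pseudogenes, and how reads were shared with them is not stated. Translation factors had no call in 41 included and a median of 0.05. EIF5A, the factor that carries the hypusine residue made from polyamines, had the smallest p there, at 254 and 233 in control and 293 and 281 in rescue (log2 0.24, adjusted p = 0.108).

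Genes around METTL16's own functions were not called. The list of METTL16, S-adenosylmethionine and polyamine synthesis had 20 included genes and a median of 0.08. ADI1, a dioxygenase of the methionine salvage pathway, had a signal of 46.5 and 44.0 in control, 52.7 and 55.7 in rescue, and 71.5 and 67.7 in knockout (rescue minus control 0.25, adjusted p = 0.108 by limma). AMD1, which decarboxylates S-adenosylmethionine for polyamine synthesis, had 38.4 and 36.3 in control and 42.4 and 44.5 in rescue (log2 0.21, adjusted p = 0.196). Both had rescue libraries above both controls, as had 34.6% of all genes tested, and their choice by small p makes this likely. Other N6-methyladenosine writers, erasers and readers had a median of 0.06 over 24 genes. WTAP, the adaptor of the METTL3 methyltransferase complex, had the smallest p of them, at 31.7 and 31.9 in control and 35.4 and 35.8 in rescue (log2 0.16, adjusted p = 0.347).

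Among 38 included partners of U6 RNA and splicing factors the median was 0.09 and none was called. SRSF6, a serine- and arginine-rich splicing factor, had 55.6 and 53.5 in control, 62.1 and 63.7 in rescue and 73.8 and 71.6 in knockout (rescue minus control 0.20, adjusted p = 0.180 by limma). CLK1, a kinase that phosphorylates such factors, was lower in rescue without passing, at 29.5 and 29.8 against 36.0 and 33.4 in control (log2 -0.22, adjusted p = 0.206). Its level was nearer to the 27.9 and 27.2 of knockout than to control. Enzymes of branched-chain amino acid catabolism had a median of 0.05 over 25 included genes, and those of serine, glycine and one-carbon metabolism 0.06 over 19, with no call in either list. IVD, a dehydrogenase of leucine breakdown, had the smallest p of the branched-chain list at 0.17 (adjusted p = 0.477), and MTHFD1, a folate enzyme, of the one-carbon list at 0.13 (adjusted p = 0.429).

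The remaining lists had no call, apart from CALR, which is also in the antigen presentation list (8 genes, median 0.05). Heat shock and immediate early genes had a median of 0.12 over 21 genes, with HSPA8 at 0.18 (adjusted p = 0.213 by limma). All of them were at or above 0, where the median of all included genes was itself above 0, at 0.0637. In the NF-kB and inflammatory list the median was 0.09 over 19, and the chemokine gene CCL2 had 7.52 and 6.02 in control and 9.5 and 10.2 in rescue (log2 0.49, adjusted p = 0.065). The MLL fusion and stem cell list had a median of 0.08 over 25, and MEIS1, a homeobox gene driven by MLL fusions, had 41.4 and 38.7 in control and 45.8 and 47.4 in rescue (log2 0.21, adjusted p = 0.193). Lysosome and autophagy genes had a median of 0.09 over 37, with TP53INP2, an autophagy factor, at 3.76 and 3.68 in control, 5.0 and 5.25 in rescue, and 15.4 and 15.5 in knockout (rescue minus control 0.38, adjusted p = 0.0995). Medians were 0.08 over 74 respiratory chain subunits, 0.07 over 23 interferon response genes, 0.06 over 13 p53 targets, 0.06 over 31 genes of cholesterol and fatty acid synthesis and 0.05 over 31 of glycolysis and hypoxia. Apoptosis regulators had a median of 0.10 over 27 genes, amino acid transporters 0.07 over 17, nuclear long noncoding RNAs 0.02 over 23, and genes at 17p13.3 near METTL16 0.06 over 32.

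Small RNAs made up 10 of the 29 calls, and their values rest on few reads. A read step was estimated in each library from the spacing of the values of genes with a single transcript of up to 400 nt. Only genes with low values, under 4.5 steps, were used, 102 to 120 per library. Of these values 75.0% to 88.2% lay within 0.15 of a whole number of reads, for a step fitted to those same values. By this estimate the median small RNA had 18.9 reads per library, and 54 of 190 had under 10. The read numbers below are such estimates, rounded, and their ratios carry 95% intervals for counting error only. SCARNA21, a guide RNA of the Cajal bodies that lies in an intron of CHD3, had the most reads, with 43 and 26 in control and 65 and 63 in rescue (signal 19.0 and 11.5 against 29.4 and 29.2, log2 0.94, adjusted p = 0.0113 by limma). The ratio of its summed reads was 1.86, with an interval of 1.37 to 2.52. SNORA52, in the RPLP2 gene, had 17 and 20 reads in control and 26 and 32 in rescue (ratio 1.57, interval 1.02 to 2.44). These were the only called small RNAs whose interval left out a ratio of 1. Neither passed after any of the 3 rescalings of the libraries, with adjusted p by limma of 0.133 to 0.14 for SCARNA21 and 0.218 to 0.244 for SNORA52.

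The other small RNAs called higher had fewer reads. SNORD50B, overlapping an annotated exon of SNHG5, had 3 and 1 reads in control and 5 and 7 in rescue. Its difference of 1.54 log2 units stood on an interval of 0.909 to 12.8 for the ratio. SNORD18A, in the RPL4 gene, had 3 and 6 reads in control and 9 and 11 in rescue (interval 0.967 to 5.54). SNORD143 had 5 and 5 against 8 and 8, SNORD83A 11 and 11 against 18 and 16, and MIR7847, in the LSP1 gene, 5 and 5 against 7 and 7. Of the 10 called small RNAs SNORD143 alone passed after all 3 rescalings (adjusted p from 0.023 to 0.036 by limma), but its interval for the ratio, 0.683 to 3.94, included 1. Values of SNORD18A, SCARNA21, SNORD83A and SNORA18 fell within 0.15 of a whole read in at most 1 of 6 libraries, so their read numbers are rougher than the rest.

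All 3 genes called lower in rescue were small nucleolar RNAs, and none of the 3 passed under any rescaling of the libraries. SNORD42B (chromosome 17, 28720550 to 28720616, plus strand, 67 nt, overlapping an annotated exon of RPL23A) had a signal of 7.05 and 9.33 in control and 2.4 and 2.47 in rescue, which stand for 3 and 4 reads against 1 and 1 (log2 -1.41, adjusted p = 0.000386 by limma). SNORD45C (chromosome 1, 75787072 to 75787150, plus strand, 79 nt, in the RABGGTB gene) had 5.73 and 4.25 in control and 1.47 and 1.51 in rescue, or 4 and 3 reads against 1 and 1, beside 10 and 6 in knockout (log2 -1.25, adjusted p = 0.00273). For both, the ratio of summed reads was 0.286 with an interval of 0.029 to 1.5, so counting error alone allows no difference. SNORA18, in the TAF1D gene, had 25 and 20 reads in control and 13 and 16 in rescue (ratio 0.644, interval 0.39 to 1.05, log2 -0.53, adjusted p = 0.0479). The sequences of the pair with the fewest reads show how short these RNAs are, from the GENCODE transcripts on GRCh38, 5′ to 3′, with the D box CTGA in capitals for SNORD42B, and the C box TGATGA and the D box CTGA for SNORD45C.
SNORD42B: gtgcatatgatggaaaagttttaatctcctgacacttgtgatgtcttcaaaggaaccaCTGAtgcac
SNORD45C: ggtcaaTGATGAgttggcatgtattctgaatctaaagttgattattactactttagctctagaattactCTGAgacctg

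Host genes were found for 9 of the 10 small RNAs, all but SNORD143, and none of these hosts was called. RPL23A had a difference of 0.10 (adjusted p = 0.5 by limma), RABGGTB of -0.02, ACADM, on the same strand at the SNORD45C locus, of 0.01, TAF1D of 0.05, SNHG5 of -0.04, RPL4 of 0.04, CHD3 of 0.14, RPLP2 of 0.03 and RPL3 of -0.01. LSP1, at 60.8 in control and 72.5 in rescue, had the highest difference of these hosts, 0.25 (adjusted p = 0.109). Reads of a host exon that covers a small RNA could be assigned to either.

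**Figure D4:**
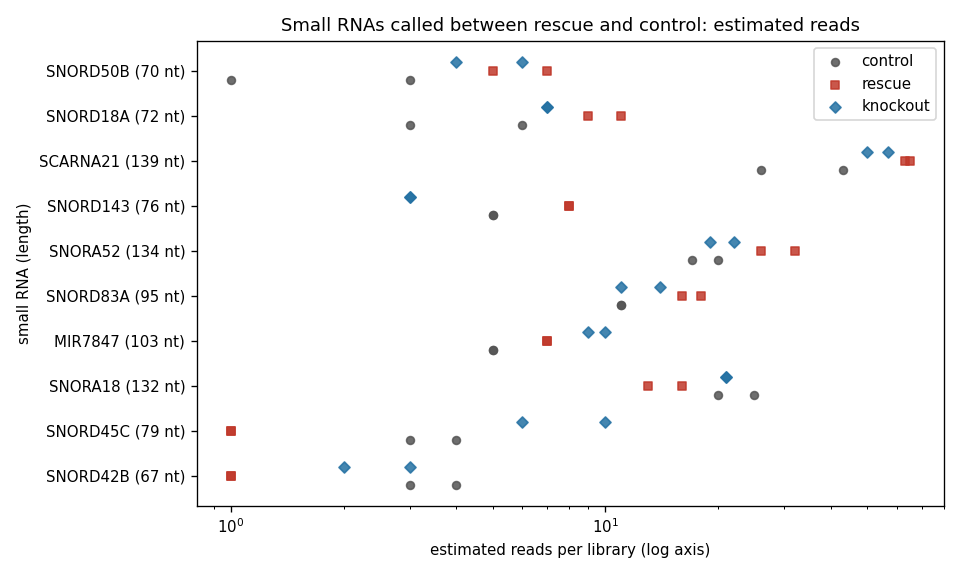
Estimated reads of each library on a log axis for the 10 small RNAs called between rescue and control, with control (grey circles), rescue (red squares) and knockout (blue diamonds), and the transcript length in brackets. SNORD42B and SNORD45C have 1 read in each rescue library, and SCARNA21, with 26 to 65 reads, is the best covered.

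The balance between higher and lower calls moved with how the libraries were scaled. With the deposited values 26 genes were higher and 3 lower, 89.7% higher. After scaling by the median ratio there were 7 higher and 2 lower (77.8%), with equal sums over all but the 4 most abundant RNAs 16 and 9 (64.0%), and after quantile normalization 18 and 13 (58.1%). In that order 7, 14 and 15 of the 26 higher genes were kept, and 0 of the 3 lower genes each time. All lower genes called after rescaling were therefore ones that the reported fit did not call. Those called lower under at least 2 of these 3 scalings, 8 in number, were looked up after the values were seen. DDIT4 was at -0.33 after median-ratio scaling, -0.33 with equal sums (adjusted p = 0.0431 by limma) and -0.35 after quantile normalization (adjusted p = 0.036). PLAU, the urokinase protease, had 150 and 141 in control, 124 and 125 in rescue, and 60.5 and 58.3 in knockout, and was at -0.29 after median-ratio scaling (adjusted p = 0.047). MALAT1, an abundant nuclear noncoding RNA, had 1091.9 and 1023.8 in control, 894 and 919 in rescue, and 465 and 474 in knockout. It was at -0.22 with the deposited values (adjusted p = 0.104) and at -0.29 with equal sums (adjusted p = 0.0328).

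The other 5 were BHLHE41 and BHLHE40, transcription factors of the circadian clock and of hypoxia, CLK1, XPOT and FNIP2, a partner of folliculin. BHLHE41 had 7.34 and 6.72 in control, 5.07 and 5.1 in rescue, and 3.5 and 3.61 in knockout, a difference of -0.40 with the deposited values (adjusted p = 0.103 by limma). BHLHE40 had 64.6 and 60.0 in control and 53.2 and 53.8 in rescue, and FNIP2 38.9 and 36.5 against 32.4 and 33.5. Each of the 8 had both rescue libraries below both controls, where 5.33% of all genes tested did so. Their choice as lower in these same libraries makes this likely, so it adds no support. None passed in the fit reported above. Over the alternatives, rescaled or not, BHLHE41 and DDIT4 passed in 8 each of 16, PLAU in 9, BHLHE40 in 6, MALAT1 in 7 of 15, and CLK1, XPOT and FNIP2 in 2 of 16.

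The number of calls differed between fits. Without control replicate 2 there were 4 higher (S100A8, LYZ, CTSG and SNORD18A) and 0 lower, all 4 among the 26, and without control replicate 1 there were 17 higher, 11 of them among the 26, and 0 lower. Without a knockout library the counts rose to 149 higher and 36 lower, and all 29 genes were kept. Leaving out a rescue library gave 86 higher and 36 lower for replicate 1 and 71 higher and 25 lower for replicate 2, with 26 and 24 of the 29 genes kept. A fit of the included genes alone gave 194 higher and 31 lower, and a fit of protein-coding genes alone, chosen after seeing the data, 163 higher and 8 lower.

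**Figure D5:**
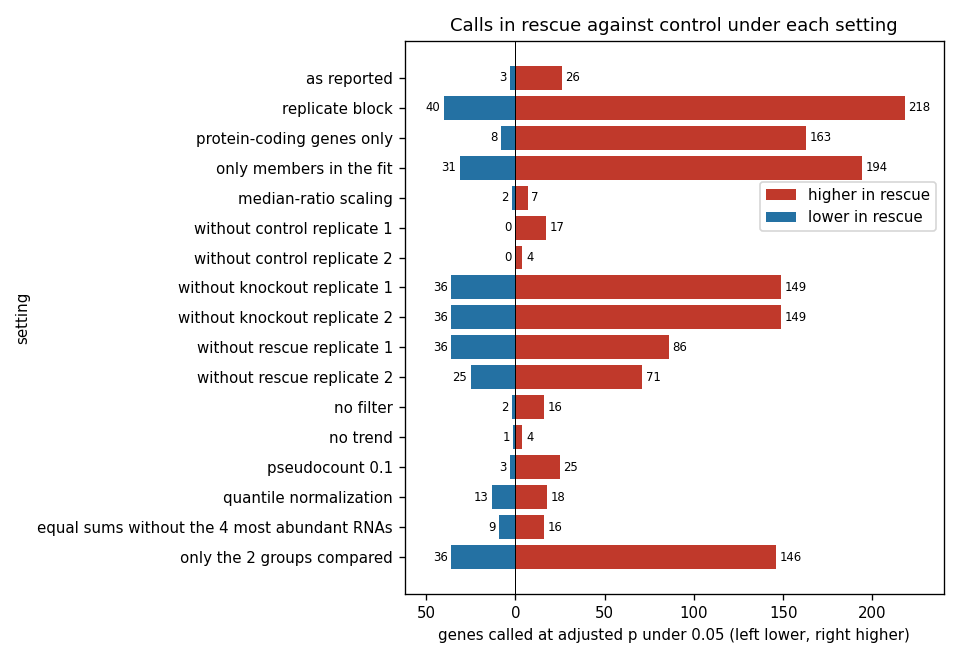
Number of included genes called at an adjusted p under 0.05 in rescue against control under each setting, with genes higher in rescue to the right in red and lower ones to the left in blue. Counts run from 4 to 218 higher and from 0 to 40 lower, against 26 and 3 as reported.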

How the data were processed

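RNA from NOMO-1 cells, depleted of ribosomal RNA, was sequenced as stranded libraries on an Illumina instrument, 2 libraries for each of 3 groups, per the labels' protocols. Per the submitters' processing notes, STAR and RSEM were used with the GRCh38 build, and no versions are given. The authors deposited 1 signal value (an RSEM abundance, not stated to be TPM or FPKM) per gene and library, and these values were used as deposited. No column was without a sample (0). Read totals are not given in the sources used here, so depth was estimated from the spacing of the values of short RNAs: a signal of 1 stood for 22.4 to 24.2 reads per kilobase.

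A gene was tested when 2 or more libraries reached a signal of 1 (12734 of 15059), with limma 3.58.1 (trend, R 4.3.3) on log2(signal + 1), all 6 libraries in 1 fit with 3 residual and 11 prior degrees of freedom. Adding 1 shrinks differences of genes with a low signal. P-values are two-sided, were adjusted over every tested gene by the Benjamini-Hochberg method, and were called at 0.05. Of the fits, only the one reported was run on simulated data with known changes, which did not carry the shift of control replicate 2. Other steps used Python 3.11.15, pandas 2.3.3, numpy 2.4.6, scipy 1.17.1 and matplotlib 3.10.9. Symbols were matched to GENCODE release 29, some through RefSeq synonyms (14503 of 15059), and 41 included genes carried the values of another gene.

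The genes to include, the gene lists and the alternatives were chosen with earlier results of these data known. The text names MAT2A, BCAT1, BCAT2 and METTL16, up to 14 higher and 14 lower genes with the largest log2 difference among those called with libraries that do not overlap, and up to 4 of smallest p per list described; any other is said to have been looked up. Cell types were checked with markers of myeloid, lymphoid, erythroid and epithelial cells. The alternatives were other scalings, pseudocounts, filters, designs and left-out libraries. Sequences of the other called small RNAs are not reported here.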

Additional observations from a re-analysis of the deposited data

How the results depend on the processing

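As reported, 26 included genes were higher and 3 lower in rescue than in control. With the replicate number as a block the counts were 218 higher and 40 lower. Over genes, the deviations of same-numbered libraries had a correlation of -0.0876 for control and rescue, -0.0845 for control and knockout and 0.157 for knockout and rescue. With 2 libraries a group this cannot settle whether same-numbered libraries were handled as pairs, and no label says so. Protein-coding genes alone (chosen after seeing the data) gave 163 and 8, included genes alone 194 and 31, and only the 2 groups compared 146 and 36. Median-ratio scaling gave 7 higher, equal sums without the 4 most abundant RNAs 16 and 9, quantile normalization 13 lower, no filter 16 higher, and no trend 4 and 1. Leaving out each library in turn gave 4 to 149 higher and 0 to 36 lower. The prior degrees of freedom that limma estimated ran from 3.11 (quantile normalization) to infinite (protein-coding genes alone, only the 2 groups, and without any knockout or rescue library), against 11 as reported; whether they set the counts was not tested. A pseudocount of 0.1 gave 25 and 3.

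For rescue against knockout, left-out libraries gave 976 to 2176 higher and 803 to 1902 lower, and the lower count was 2247 after median-ratio scaling, 2268 after quantile normalization and 3016 with equal sums. For knockout against control, left-out libraries gave 1524 to 3195 higher, and the lower count was 2525 after median-ratio scaling and 2552 after quantile normalization. The cause was not tested.

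Among genes not called, some changed sign between rescue and control. MAT2A was at 0.04 without control replicate 1 and 0.02 without rescue replicate 1, with a range of -0.05 to 0.04 over the left-out libraries. BCAT1 was at -0.04 after median-ratio scaling, quantile normalization or equal sums, and at -0.02 without control replicate 2 or rescue replicate 2 (-0.02 to 0.08 over the left-out libraries). BCAT2 was at 0.01 without control replicate 1 (-0.19 to 0.01). No called gene changed sign. With 1 library left in a group, that library is assumed to vary like the other groups. Small RNAs are limited by depth, with 54 of 190 under 10 estimated reads per library.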
